A study of Mus musculus with 19 samples.

Results

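The genes described here encode the secreted axon guidance cue netrin-1 (Ntn1), its receptors Dcc, Neo1, Dscam, Unc5a, Unc5b, Unc5c and Unc5d, and the repulsive guidance molecules Rgma and Rgmb. They were chosen by name as the members of these families and are 10 of the 47069 genes listed in the count tables. All 10 passed the filter on low counts. Their transcripts were measured by RNA-seq in 6 libraries of GFP-positive cells sorted from mouse retinas at E16.5 (embryonic stage), 3 libraries of ipsilateral retinal ganglion cells (iRGCs) and 3 of contralateral ones (cRGCs). Counted reads numbered 28193178 to 33638083 per library. The 13 ATAC-seq samples of the series were not analysed here.

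The embryos were of a C57/DBA F1 background, with males and females pooled, and the labels give their genotype as WT. Per the study's methods, both populations carried a Cre-dependent Sun1-GFP cassette in the Rosa26 locus, which gives a GFP-tagged nuclear envelope protein in the cells targeted by Cre. As removal of a stop cassette is permanent, such reporters also mark the descendants of these cells. Cre came from the Slc6a4-Cre line (Sert-Cre, driven by the serotonin transporter gene) for iRGCs and from the Pou4f2-Cre line (Brn3b, with Cre targeted into that locus) for cRGCs. Pou4f2-Cre labels ganglion cells of both kinds, so cRGCs were obtained by cutting away the ventrotemporal (VT) retina, where iRGCs arise. The study also states that iRGCs are born later and were younger on average than cRGCs at E16.5. Driver, retinal region, mean cell age and population therefore changed together and cannot be told apart. The number of embryos per library was not given in the sources used here. The p-values set the difference between populations against the spread between these libraries, and the spread between single embryos was not estimated.

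Netrins are laminin-like secreted proteins. Netrin-1 attracts growth cones through Dcc homodimers and repels them through Unc5 receptors, alone or together with Dcc, while Dscam takes part in both responses. Neogenin (Neo1) is a close relative of Dcc that binds netrins and is the main receptor of the RGM proteins, which are tethered to the membrane and also act as co-receptors of bone morphogenetic proteins (BMPs). In the embryonic eye, netrin-1 at the optic disc and Dcc on ganglion cell axons are known for guiding these axons out of the retina into the optic nerve. Unc5c is known as a receptor of ganglion cells whose axons cross the midline.

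Levels are given in CPM, the count of a gene scaled to a fixed library total, with edgeR's TMM factors applied. The labels were checked against marker genes before the members were compared. Zic2, the transcription factor of iRGCs, was at 133, 173 and 157 CPM in iRGC replicates 1, 2 and 3 and at 57.0, 60.2 and 65.7 CPM in cRGCs. Slc6a4, the gene whose regulatory region drives Cre in the iRGC line, was at 2.06, 33.4 and 116 CPM in iRGCs and 48.1, 35.4 and 30.5 CPM in cRGCs. It thus varied widely within iRGCs, was lowest in iRGC replicate 1, and was not called different (log2 fold change 0.41, SE 0.929, Benjamini-Hochberg adjusted p = 0.768 in edgeR). Pou4f1 and Isl2, transcription factors of cRGCs, were lower in iRGCs in all libraries.

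General ganglion cell markers also differed between the populations. Of 14 such markers, 13 were lower in iRGCs and 0 higher, with a median log2 fold change of -1.94, and their summed level was 2496, 3509 and 5354 CPM in iRGCs against 13824, 12483 and 15456 CPM in cRGCs. Of 13 retinal progenitor markers, 12 were higher in iRGCs, and they summed to 9557, 8528 and 7262 CPM in iRGCs against 1105, 2359 and 1843 CPM in cRGCs. Ccnd1, a G1 cyclin of dividing progenitors, was the most abundant of these in both populations, with means of 2844 and 509 CPM. All 10 markers of neurogenic precursors were higher in iRGCs as well, and so were all 5 tested markers of photoreceptor precursors, which summed to 659 ± 109 against 142 ± 48.0 CPM (mean ± SD, n = 3), and 6 of 7 amacrine markers (390.0 ± 63.4 against 142 ± 26.8 CPM). In such bulk samples, fewer cells of a type, less RNA per cell and a younger mean age of the cells cannot be told apart. The part of these markers in the results on the netrin, DCC, Unc5 and RGM genes was not tested, but each gene is also given below relative to the ganglion cell markers of its own library.

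The starts of 4 members that carry the differences below are shown for context, from 250 bases before to 50 bases after the annotated start, as given by RefSeq for GRCm38.p6. RefSeq entries matched 6 of the 10 members (Neo1, Dscam, Unc5a, Unc5b, Unc5c and Rgmb). Unc5c and Unc5b are shown because these netrin receptors of 1 family differed in opposite directions, and Dscam and Rgmb because they differed most beside Unc5c among the well expressed members that were lower in iRGCs. Capitals mark the GC box letters GGGCGG and the TATA box letters TATAAA, searched on both strands. The motifs cannot overlap each other. GGGCGG was found in 35.7% of the 32851 mouse promoter windows of this length and TATAAA in 13.6%. For Rgmb, which has 3 entries, the one nearest to the start of the gene in the annotation is shown.
Unc5c (chr3:141465314-141465613, plus strand): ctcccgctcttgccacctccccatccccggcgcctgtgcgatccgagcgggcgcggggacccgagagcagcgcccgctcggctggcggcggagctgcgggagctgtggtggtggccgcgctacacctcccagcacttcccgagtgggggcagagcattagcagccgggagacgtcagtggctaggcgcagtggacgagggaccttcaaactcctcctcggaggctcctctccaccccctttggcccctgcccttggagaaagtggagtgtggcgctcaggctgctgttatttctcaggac
Unc5b (chr10:60831532-60831831, minus strand): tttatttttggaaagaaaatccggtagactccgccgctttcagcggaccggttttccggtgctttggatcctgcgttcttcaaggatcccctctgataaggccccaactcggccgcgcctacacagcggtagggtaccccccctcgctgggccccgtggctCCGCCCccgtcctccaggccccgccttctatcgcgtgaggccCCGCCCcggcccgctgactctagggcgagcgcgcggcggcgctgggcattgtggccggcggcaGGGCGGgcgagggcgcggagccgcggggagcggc
Dscam (chr16:97170686-97170985, minus strand): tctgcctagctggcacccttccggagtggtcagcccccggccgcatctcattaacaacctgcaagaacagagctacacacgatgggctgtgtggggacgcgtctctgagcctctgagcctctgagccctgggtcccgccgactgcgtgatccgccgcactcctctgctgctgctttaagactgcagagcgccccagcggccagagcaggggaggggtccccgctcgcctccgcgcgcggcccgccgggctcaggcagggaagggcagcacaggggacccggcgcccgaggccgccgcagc
Rgmb (chr17:15831016-15831315, minus strand): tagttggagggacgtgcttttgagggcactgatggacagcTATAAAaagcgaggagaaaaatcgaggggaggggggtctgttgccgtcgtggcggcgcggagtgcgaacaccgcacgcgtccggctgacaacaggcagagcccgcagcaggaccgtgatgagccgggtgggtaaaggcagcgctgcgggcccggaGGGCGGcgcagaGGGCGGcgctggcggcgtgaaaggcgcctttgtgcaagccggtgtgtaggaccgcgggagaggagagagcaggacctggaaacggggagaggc

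The Unc5b window held 3 GC boxes and the Rgmb window held 2 together with 1 TATA box, while the Unc5c and Dscam windows held 0 of either. TATAAA lies near the beginning of the Rgmb window, well before the annotated start. The counts for Rgmb depend on the entry: entry 1 held 0 GC boxes and 1 TATA box, and entry 3 held 4 GC boxes and 0 TATA boxes. All 4 were richer in G and C than the median mouse promoter window of 52.7%, with 68.3% in Unc5c, 69.7% in Unc5b, 70.0% in Dscam and 66.0% in Rgmb. The number of CpG dinucleotides was 24, 36, 26 and 30, respectively, against a median of 7. A match of letters is a description of the sequence and not of a bound site.

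Of the 10 genes, 7 differed between iRGCs and cRGCs at an adjusted p-value under 0.1 (edgeR's quasi-likelihood test with Benjamini-Hochberg adjustment over the 15941 tested genes), and 3 did not. Dscam, Unc5a, Unc5c, Unc5d and Rgmb were lower in iRGCs. Ntn1 and Unc5b were higher. Dcc, Neo1 and Rgma were not called. Without iRGC replicate 1, in which Slc6a4 was lowest, 7 members were still called. The populations differed widely, and 46.4% of all tested genes passed the same threshold, 23.3% as higher and 23.1% as lower in iRGCs. In the same 7 members, the libraries of the populations did not overlap, which held for 55.3% of all tested genes. With an absolute log2 fold change above 1 required as well, 6 members passed, all but Unc5a of the 7, against 23.1% of all tested genes. The median log2 fold change of the 10 genes was -0.50, beside -0.0031 for all tested genes.

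**Figure D1:**
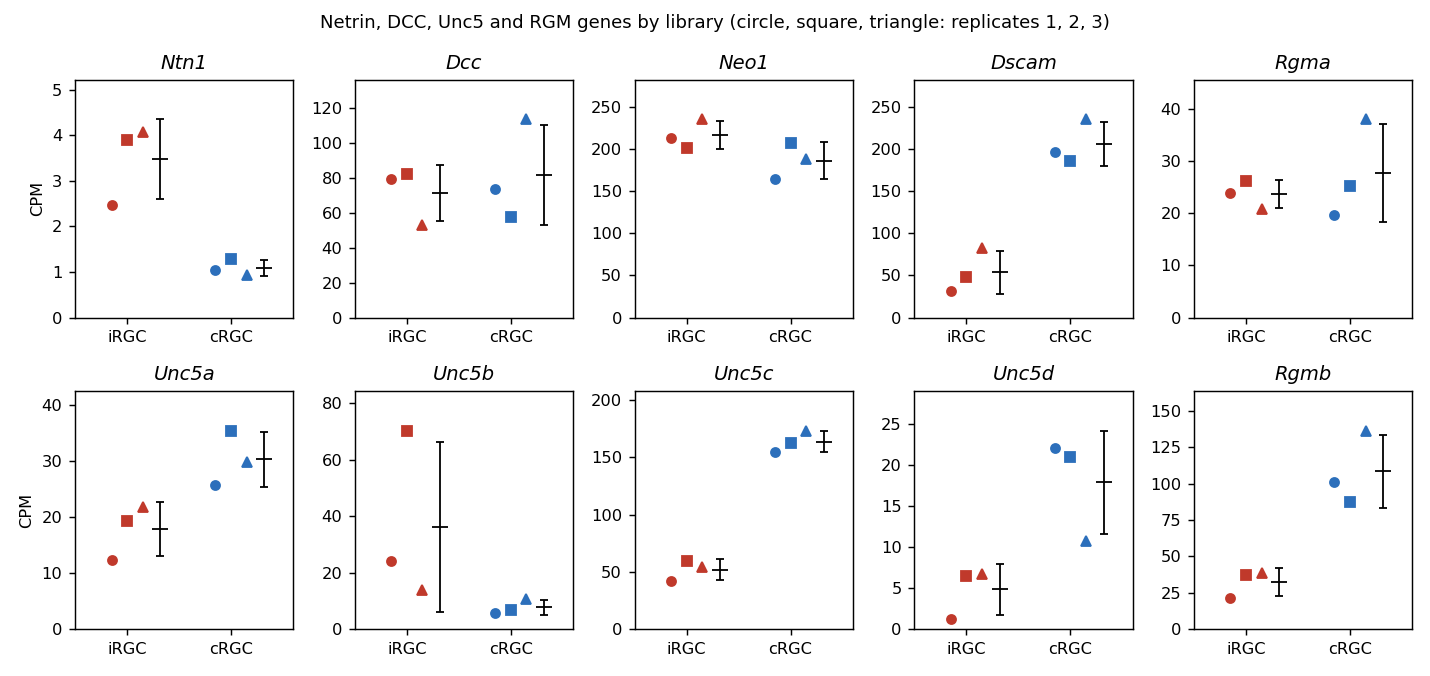
CPM (linear axes from 0) of the 10 genes in each iRGC (red) and cRGC (blue) library, with a circle, square and triangle for replicates 1, 2 and 3 and the mean ± SD in black. Unc5c, Dscam and Rgmb separate the populations with cRGCs higher, Dcc, Neo1 and Rgma overlap, and Unc5b has its highest value, 70.3 CPM, in iRGC replicate 2.

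Ntn1, the only netrin among these 10 genes, had the lowest level per kilobase of exon in cRGCs. It lies at chr11:68209364-68400823 on the minus strand. It had 77, 126 and 129 counts in iRGCs, or 2.48, 3.89 and 4.07 CPM, and 27, 37 and 29 counts in cRGCs, or 1.04, 1.28 and 0.936 CPM. All iRGC libraries were above all cRGC libraries, at 3.21-fold the mean level (log2 fold change 1.68, SE 0.562, 95% confidence interval 0.41 to 2.95, Benjamini-Hochberg adjusted p = 0.0411 in edgeR). The call was lost when 1 of 3 libraries was left out, with adjusted p-values of 0.119 without iRGC replicate 2, 0.135 without iRGC replicate 3 and 0.120 without cRGC replicate 3 (edgeR, Benjamini-Hochberg), and also without the filter on low counts (0.123).

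Markers of the optic stalk and astrocytes were read beside Ntn1. Of 6 such markers 3 passed the filter, and of these 0 were called higher in iRGCs, 1 (Aldh1l1) was called lower and 2 (Pdgfra and Vax1) were not called. The sum of all 6 was 11.997, 9.74 and 9.93 CPM in iRGCs against 16.3, 13.9 and 16.0 CPM in cRGCs. The most abundant of them were Pdgfra in iRGCs, at 4.32 CPM, and Aldh1l1 in cRGCs, at 7.17 CPM. Pax2, the defining transcription factor of the optic stalk, was at 0, 0.0618 and 0.347 CPM in iRGCs and 0.538, 0.0690 and 0.355 CPM in cRGCs. Gfap and S100b, markers of astrocytes, did not exceed 0.189 and 0.449 CPM in any library. Vax1, another transcription factor of the optic stalk, was at 1.35, 4.45 and 2.14 CPM in iRGCs and 1.19, 1.42 and 1.13 CPM in cRGCs, with the highest level in iRGC replicate 2 and overlap between the populations (log2 fold change 1.09, SE 0.673, Benjamini-Hochberg adjusted p = 0.241 in edgeR). The part of such cells in the level of Ntn1 was not tested.

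Dcc and Neo1, the receptors of the DCC family, were both strongly expressed and overlapped between the populations. Dcc (chr18:71253634-72351069, minus strand) was at 79.2, 82.0 and 52.9 CPM in iRGCs and 73.4, 57.8 and 113.60 CPM in cRGCs. The lowest Dcc level was in iRGC replicate 3 and the highest in cRGC replicate 3. Its log2 fold change was -0.19 (SE 0.256, 95% confidence interval -0.77 to 0.39, Benjamini-Hochberg adjusted p = 0.597 in edgeR). The interval leaves room for a moderate difference in either direction, and without cRGC replicate 3 the estimate changed sign, to 0.14.

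Neo1 (chr9:58874687-59036441, minus strand) was at 213, 201 and 235 CPM in iRGCs and 164, 206 and 188 CPM in cRGCs. Only cRGC replicate 2 reached into the range of iRGCs. The log2 fold change of 0.22 had an SE of 0.119 and a 95% confidence interval of -0.05 to 0.49, the narrowest of the 10 genes, and was not called (Benjamini-Hochberg adjusted p = 0.186 in edgeR).

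Dscam, an immunoglobulin-domain receptor that binds netrin-1 and also mediates self-avoidance of neurites, was lower in iRGCs. It lies at chr16:96590840-97170752 on the minus strand and was at 31.4, 47.7 and 82.1 CPM in iRGCs and 197, 186 and 235 CPM in cRGCs. The highest iRGC library was below the lowest cRGC library. The mean level was 3.84-fold higher in cRGCs (log2 fold change -1.94, SE 0.303, Benjamini-Hochberg adjusted p = 0.00113 in edgeR). Of its exonic bases, 3.10% overlap the gene AC154538.1, and the strand setting of the counting was not given in the sources used here.

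The Unc5 receptors, which mediate repulsion by netrin-1, did not differ in 1 direction. Unc5c (chr3:141465216-141834924, plus strand) was at 41.7, 59.4 and 54.4 CPM in iRGCs and 155, 162 and 173 CPM in cRGCs. The libraries of each population lay close together and far from the other population, with a log2 fold change of -1.66 and the lowest adjusted p-value of the 10 genes (SE 0.145, Benjamini-Hochberg adjusted p = 2.05e-04 in edgeR). Unc5a (chr13:54949411-55006018, plus strand) was at 12.4, 19.3 and 21.8 CPM in iRGCs and 25.7, 35.5 and 29.9 CPM in cRGCs. It had the smallest change among the called members, with cRGCs higher and a narrow gap between the populations (log2 fold change -0.77, SE 0.236, Benjamini-Hochberg adjusted p = 0.0295 in edgeR). Without cRGC replicate 2 its call was lost, at a log2 fold change of -0.63 (Benjamini-Hochberg adjusted p = 0.106 in edgeR).

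Unc5d, a receptor that also binds the FLRT proteins, was the least expressed Unc5 gene in iRGCs. It lies at chr8:28646717-29219636 on the minus strand and was at 1.22, 6.49 and 6.75 CPM in iRGCs and 22.1, 20.9 and 10.7 CPM in cRGCs. Its spread was wide in both populations, with iRGC replicate 1 far below the other iRGC libraries and cRGC replicate 3 below the other cRGC libraries, but the populations did not overlap. The log2 fold change was -1.89 (SE 0.571, 95% confidence interval -3.18 to -0.59, Benjamini-Hochberg adjusted p = 0.0276 in edgeR).

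Unc5b was the only Unc5 receptor higher in iRGCs. It lies at chr10:60762593-60831581 on the minus strand and was at 24.3, 70.3 and 13.7 CPM in iRGCs and 5.57, 6.87 and 10.7 CPM in cRGCs. The populations did not overlap, but iRGC replicate 3 was near the highest cRGC library and iRGC replicate 2 was far above all others. The mean was 4.67-fold higher in iRGCs (log2 fold change 2.22, SE 0.554, 95% confidence interval 0.96 to 3.48, Benjamini-Hochberg adjusted p = 0.0117 in edgeR). Without iRGC replicate 2, the log2 fold change was 1.29 and the call was kept (Benjamini-Hochberg adjusted p = 0.0305 in edgeR).

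Unc5b is also known as a netrin receptor of endothelial cells, and markers of vessels moved with it. All 6 tested endothelial markers of 10 were higher in iRGCs. Their most abundant gene, Kdr, which retinal progenitors also express, was at 366, 320 and 418 CPM in iRGCs and 83.7, 103 and 67.6 CPM in cRGCs. The other 9 markers summed to 81.7, 328 and 17.8 CPM in iRGC replicates 1, 2 and 3 and to 5.04, 5.73 and 4.23 CPM in cRGCs, in the same order of iRGC libraries as Unc5b. Cdh5, which encodes the cadherin of endothelial junctions, was at 15.2, 81.3 and 0.158 CPM in iRGCs and had 0 counts in cRGCs, as did Tie1. Of the 8 mural markers Notch3 was the most abundant, at 113, 117 and 83.5 CPM in iRGCs and 17.1, 26.7 and 18.6 CPM in cRGCs. The other 7 summed to 22.4, 160 and 36.8 CPM in iRGCs and to 3.77, 5.04 and 4.45 CPM in cRGCs, and the 7 erythroid markers to 12.2, 92.7 and 15.2 CPM in iRGCs and to 0, 5.11 and 0.290 CPM in cRGCs. In iRGC replicate 3, where Cdh5 was lowest of the iRGC libraries, Unc5b was above every cRGC library, at 13.7 against at most 10.7 CPM, and so were 6 of the 10 endothelial markers, such as Cldn5, at 11.8 against at most 2.93 CPM. The other 4 (Pecam1, Tek, Emcn and Esam) were not. The 6 include Kdr and also Cdh5 and Tie1, at only 0.158 and 0.0631 CPM against 0 counts in cRGCs. The part of vessel cells in the level of Unc5b was not tested.

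**Figure D2:**
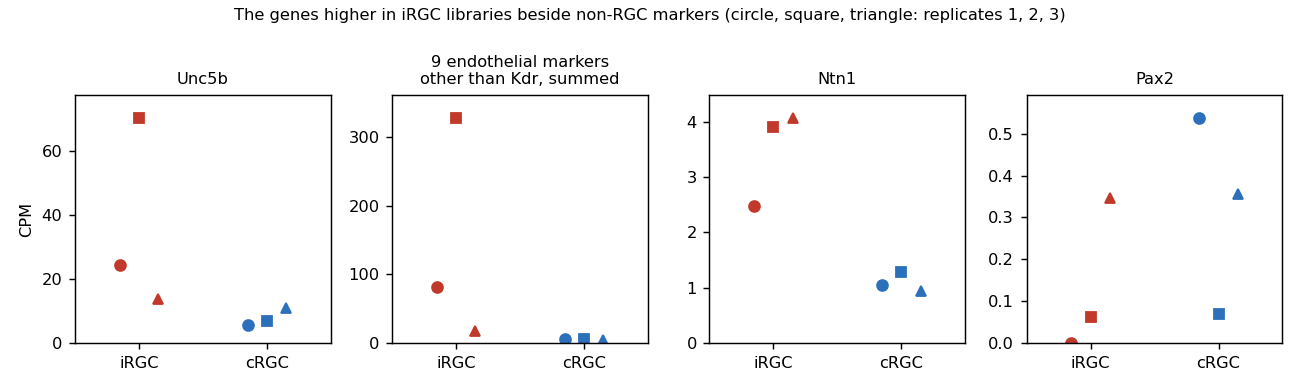
CPM per library (linear axes from 0) of Unc5b, the summed endothelial markers other than Kdr, Ntn1 and Pax2, with iRGCs in red and cRGCs in blue and a circle, square and triangle for replicates 1, 2 and 3. Unc5b and the endothelial sum both peak in iRGC replicate 2. Ntn1 is higher in every iRGC library, and Pax2 is at most 0.538 CPM in all libraries.

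Rgma and Rgmb encode ligands of neogenin and co-receptors of BMPs. Rgma (chr7:73375509-73419899, plus strand) was at 23.9, 26.2 and 20.8 CPM in iRGCs and 19.7, 25.3 and 38.0 CPM in cRGCs. The libraries overlapped, with the highest level in cRGC replicate 3. The log2 fold change was -0.23 (SE 0.244, 95% confidence interval -0.78 to 0.33, Benjamini-Hochberg adjusted p = 0.509 in edgeR), and it was 0.08 without cRGC replicate 3. Of its exonic bases, 4.65% overlap A730056A06Rik.

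Rgmb (chr17:15803188-15831039, minus strand) was at 21.04, 37.0 and 38.3 CPM in iRGCs and 101, 87.3 and 137 CPM in cRGCs. Every cRGC library was above every iRGC library, and the mean was 3.38-fold higher in cRGCs (log2 fold change -1.76, SE 0.251, Benjamini-Hochberg adjusted p = 7.49e-04 in edgeR). Within a library, the ratio of Rgmb to Rgma counts was 0.879, 1.41 and 1.84 in iRGCs and 5.15, 3.45 and 3.59 in cRGCs. The ratios did not overlap (log2 difference -1.60, p = 0.1 by a two-sided exact permutation test, the smallest p that 3 libraries against 3 can give).

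**Figure D3:**
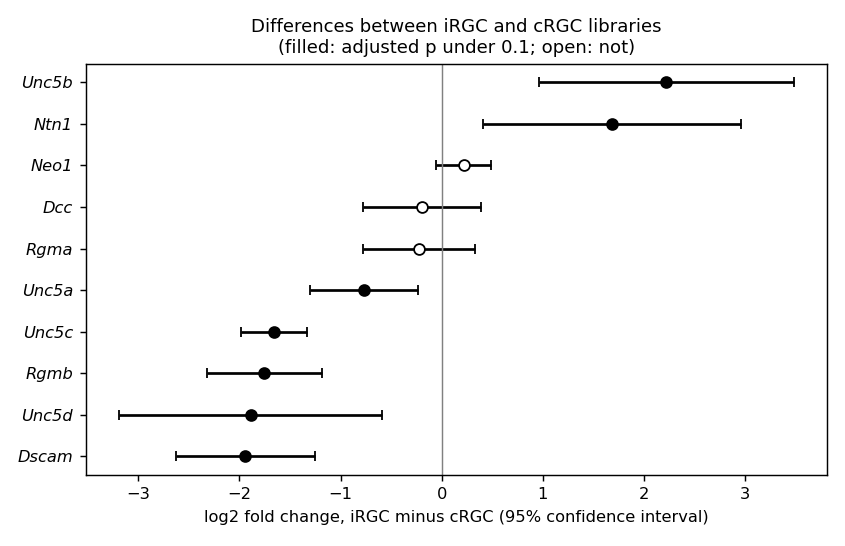
Log2 fold change of each gene, iRGCs minus cRGCs, with its 95% confidence interval (edgeR), filled where the adjusted p-value was under 0.1. Unc5b (2.22) and Ntn1 (1.68) lie right of 0, the intervals of Neo1, Dcc and Rgma span 0, and 5 genes from Unc5a (-0.77) to Dscam (-1.94) lie left of it.

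The balance of netrin receptors was read within libraries, since a ratio of counts does not depend on library size. It can still depend on the makeup of cells in a library and is not a balance within single cells. The ganglion cell and progenitor markers differed between these libraries. Their part in these ratios, and in that of Rgmb to Rgma, was not tested. The ratio of Unc5c to Dcc was 0.527, 0.724 and 1.03 in iRGCs and 2.11, 2.81 and 1.53 in cRGCs. Its mean was 0.759 ± 0.252 in iRGCs and 2.15 ± 0.644 in cRGCs (SD, n = 3), with no overlap (log2 difference -1.51, p = 0.1 by a two-sided exact permutation test, the smallest possible). The ratio of Neo1 to Dcc was 2.69, 2.45 and 4.44 in iRGCs and 2.23, 3.57 and 1.66 in cRGCs. These ratios overlapped, with a log2 difference of 0.38 (p = 0.4 by a two-sided exact permutation test).

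Levels of different genes were compared per kilobase of exon. On this scale, Neo1 stood alone at the top in iRGCs, at 24.8 ± 1.97 CPM per kilobase (SD, n = 3). It was followed by Dscam at 6.10, Unc5b at 5.77, Dcc at 5.42, Unc5a at 4.28, Rgma at 4.27, Rgmb at 4.19 and Unc5c at 2.71 CPM per kilobase, and each of these overlapped its neighbour. Ntn1 at 0.554 and Unc5d at 0.523 CPM per kilobase were below all of them and overlapped each other.

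In cRGCs the order was different, with Dscam (23.4 CPM per kilobase) and Neo1 (21.3 CPM per kilobase) overlapping at the top. Rgmb came next at 14.1 CPM per kilobase, separate from both its neighbours. Unc5c at 8.55, Unc5a at 7.28, Dcc at 6.20 and Rgma at 4.99 CPM per kilobase each overlapped the next, Unc5d at 1.94 overlapped Unc5b at 1.24, and Ntn1 was lowest at 0.173 CPM per kilobase. The exons of Unc5c add up to 19135 bp over all transcripts but its longest transcript has 9646 bp. With the longest transcript as the length, Neo1 (25.2), Dscam (23.6), Rgmb (19.0) and Unc5c (17.0 CPM per kilobase) led in cRGCs and each overlapped the next, so that Rgmb no longer stood apart. In iRGCs, Neo1 still stood alone on that length (29.3 CPM per kilobase), Dcc (6.91) came next, Dscam was at 6.15 and Unc5c at 5.37 CPM per kilobase, and all from Dcc to Unc5a overlapped their neighbours.

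**Figure D4:**
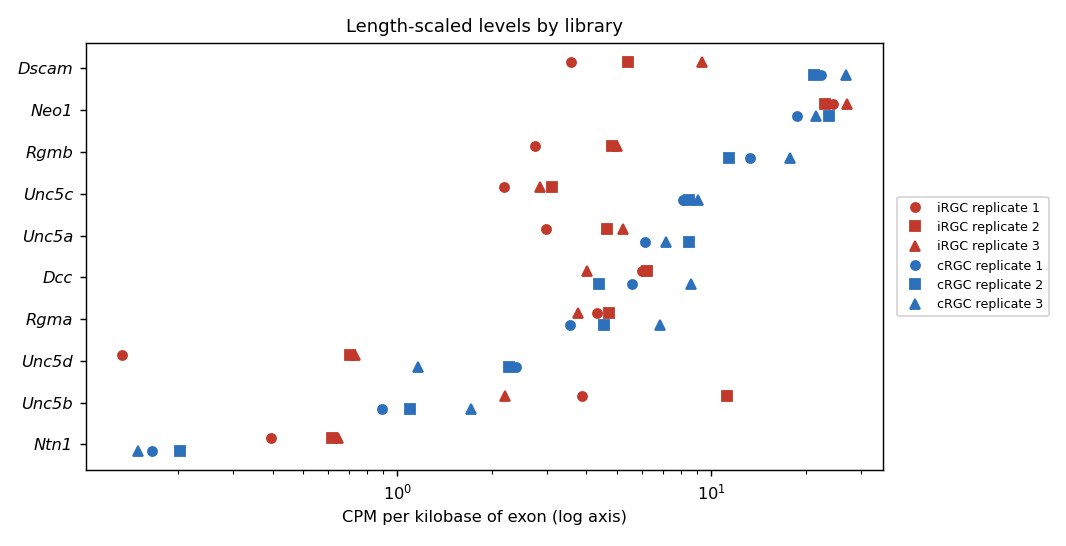
CPM per kilobase of exon (log axis) of the 10 genes in each iRGC (red) and cRGC (blue) library, ordered by the mean of cRGCs. Dscam overlaps Neo1 in cRGCs and lies below it in all iRGC libraries, and Ntn1 is lowest in cRGCs.

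The makeup of the families shifted accordingly. Of the summed CPM per kilobase of the 4 Unc5 genes, Unc5c took 45.1% ± 3.00 in cRGCs and 21.8% ± 5.33 in iRGCs (SD, n = 3). By the longest transcript its share was 61.0% ± 2.87 and 34.3% ± 7.29, which put its mean above that of Unc5a (28.5% ± 9.18) in iRGCs also. The share of Unc5b was 6.48% ± 2.17 in cRGCs and 39.8% ± 18.7 in iRGCs, where it was 42.3%, 57.1% and 19.99% in replicates 1, 2 and 3. Unc5a held 38.2% ± 3.38 in cRGCs and 34.5% ± 12.1 in iRGCs, which overlapped. Among Dcc, Neo1 and Dscam, the share of Dscam was 45.9% ± 2.61 in cRGCs and 16.4% ± 6.37 in iRGCs. That of Dcc was 11.996% ± 3.11 and 15.2% ± 4.52, and that of Neo1 was 42.1% ± 5.35 and 68.4% ± 3.01. The shares of Neo1 did not overlap, although Neo1 itself was not called. Shares of a sum are tied to each other, so that a lower share of 1 gene raises those of the others.

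The genes were also read relative to the ganglion cell markers of the same library. The geometric mean of the 14 markers was 99.0, 131 and 204 CPM in iRGCs and 568, 505 and 481 CPM in cRGCs. The differences on this scale compare means over libraries of the log2 of CPM, with a pseudocount of 0.5 CPM, and so are not the edgeR log2 fold changes plus a constant. Against the same means without the divisor, dividing adds 1.90 to the difference of every gene alike. Of all tested genes, 87.9% were then higher in every iRGC library and 11.7% overlapped between the populations. The values on this scale are therefore no further test. Dscam, Unc5d, Rgmb and Unc5c, whose log2 fold changes were near the fall of the markers, came close to 0 and overlapped between the populations, with differences of iRGCs minus cRGCs of -0.14 for Dscam, -0.09 for Unc5d, 0.13 for Rgmb and 0.23 for Unc5c. On the log2 scale, Unc5c was at -1.24, -1.13 and -1.90 relative to the markers in iRGCs and at -1.87, -1.63 and -1.47 in cRGCs.

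The other 6 genes were higher in iRGCs on this scale with no overlap, as were most tested genes, and nothing particular to them is read from it. The log2 difference was 1.12 for Unc5a, 1.72 for Rgma, 1.74 for Dcc, 2.12 for Neo1, 3.21 for Ntn1 and 3.77 for Unc5b. With 1 library left out at a time, these 6 differences remained above 0, with the lowest at 0.94 for Unc5a, while those of Dscam, Unc5d and Rgmb took either sign and that of Unc5c lay between 0.09 and 0.47. The progenitor and precursor markers given above were also higher in iRGCs, and their part in these differences was not tested.

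**Figure D5:**
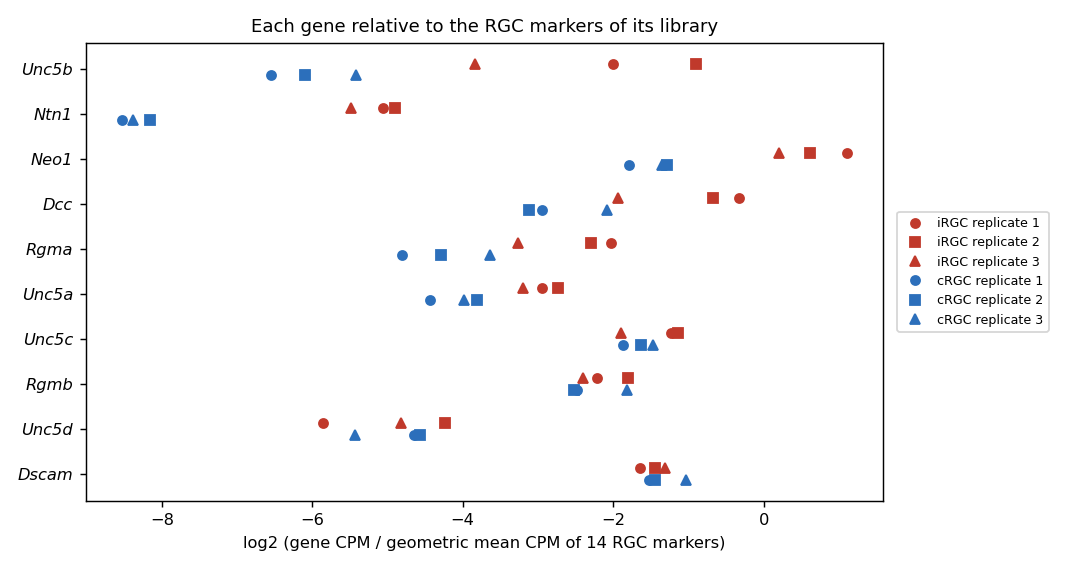
Log2 ratio of each gene's CPM to the geometric mean CPM of 14 ganglion cell markers of the same library, for iRGCs (red) and cRGCs (blue). The lower 4 genes (Unc5c, Rgmb, Unc5d and Dscam) overlap between the populations, as do 11.7% of all tested genes. The other 6 are higher in every iRGC library, as are 87.9% of all tested genes.

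Other genes of the pathway were read from 5 lists with 71 tested genes. Of these, 47 passed the threshold in the edgeR test (66.2%, beside 46.4% of all tested genes), 19.7% as higher and 46.5% as lower in iRGCs, beside 23.3% and 23.1% of all tested genes. Among other netrins and ligands of these receptors, 1 of 8 tested genes was higher, 3 were lower and 4 were not called, with a median log2 fold change of -0.42. Draxin, a secreted repulsive cue that binds Dcc and netrin-1, was at 75.1, 109 and 122 CPM in iRGCs and 345, 283 and 315 CPM in cRGCs, with no overlap (log2 fold change -1.63, SE 0.177). The netrin-G genes encode membrane-anchored netrins that bind NGL proteins and not Dcc, and they moved apart. Ntng1 was lower in iRGCs (-1.80, SE 0.313), at 9.23, 11.6 and 19.99 CPM against 57.9, 50.7 and 33.4 CPM in cRGCs. Ntng2 was higher (1.92, SE 0.349), at 61.4, 31.8 and 46.5 CPM against 7.11, 17.9 and 11.97 CPM. Of the exonic bases of Ntng2, 13.985% are shared with other genes, against 0% for Ntng1. Ntn5 had 0 counts in all libraries, and Ntn4 was not called (-0.06, SE 0.182).

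Of 8 other receptors and partners, 3 were higher and 2 lower in iRGCs, with a median log2 fold change of 0.39. Mcam, a cell adhesion molecule that binds netrin-1 and is also made by vessel cells, was at 25.4, 57.9 and 27.8 CPM in iRGCs and 5.23, 4.52 and 1.45 CPM in cRGCs (log2 fold change 3.32, SE 0.501). It was highest in iRGC replicate 2, as were Unc5b and the sum of the endothelial markers other than Kdr. Gpc3, a glypican that binds Unc5 receptors, was higher in iRGCs (1.18, SE 0.311), and so was Lrrc4c (0.84, SE 0.310), the NGL partner of netrin-G1. Adgrl3, a latrophilin that binds FLRT and Unc5 proteins, was lower (-0.94, SE 0.098), and so was Dscaml1 (-1.46, SE 0.273), the relative of Dscam.

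Of 10 BMP ligands and receptors, with which RGM proteins act, 2 were higher and 3 lower, with a median log2 fold change of -0.06. The type I receptors Bmpr1b and Bmpr1a were higher in iRGCs, Bmpr1b at 39.0, 63.8 and 34.8 CPM against 7.30, 11.1 and 7.71 CPM in cRGCs (log2 fold change 2.39, SE 0.279) and Bmpr1a with a log2 fold change of 1.15 (SE 0.140). The type II receptor Acvr2a was lower (-0.65, SE 0.164). Bmpr1b lies at chr3:141837136-142169425 on the minus strand, next to Unc5c, with 2211 bp and 0 protein-coding genes between them. These neighbours thus differed in opposite directions, with Unc5c at -1.66 and Bmpr1b at 2.39 on the log2 scale.

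Of 14 genes of receptor shedding and trafficking, 2 were higher and 8 lower, with a median log2 fold change of -0.45. Adam17, a sheddase known to cleave neogenin, was higher in iRGCs, at 70.3, 67.4 and 60.0 CPM against 15.5, 30.4 and 25.9 CPM in cRGCs (log2 fold change 1.46, SE 0.229). Lrig1, a membrane protein with leucine-rich repeats, was also higher (1.63, SE 0.225). Their relatives went the other way. Adam10, the most abundant gene of this list in both populations, was lower in iRGCs, at means of 266 against 562 CPM (-1.08, SE 0.202). Lrig2 was lower as well (-0.67, SE 0.134). Stx1a (-1.66, SE 0.268) and Snap25 (-1.47, SE 0.190), which encode SNARE proteins of the presynapse, were lower.

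The list of proteins that bind these receptors or signal from them had 31 tested genes, 6 of them higher and 17 lower in iRGCs, with a median log2 fold change of -0.35. Trim67, a ubiquitin ligase that binds Dcc, was at 86.3, 93.7 and 130 CPM in iRGCs and 462, 429 and 387 CPM in cRGCs (log2 fold change -2.04, SE 0.166). Among the genes that were higher, Dock1, an activator of Rac, was at 74.3, 86.7 and 50.6 CPM against 3.84, 13.5 and 12.3 CPM (2.83, SE 0.421). Ezr, which links membrane proteins to actin, was also higher (2.40, SE 0.336). The other 4 were Myo10, a motor of filopodia (1.24, SE 0.310), the GTPase gene Rhoa (0.49, SE 0.126), the kinase gene Yes1 (0.46, SE 0.124) and the phosphatase gene Ptpn11 (0.33, SE 0.095). The ganglion cell and progenitor markers differed between the same libraries, as given above, and their part in these counts was not tested.

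The tested protein-coding genes whose log2 CPM followed Unc5c most closely over the 6 libraries were Ulk2 (Pearson's r 0.99964), Sike1 (0.99904) and Tmem169 (0.99849), out of 10104 genes with a mean of at least 10 CPM. For Unc5b they were Gcdh (0.997), Gatad2a (0.994) and Ets1 (0.994). The points share their libraries and form a pair of groups of 3. A high r does not mean a like fold, and Ulk2 had means of 156 and 261 CPM in iRGCs and cRGCs, against 51.8 and 164 CPM for Unc5c. Ets1 was at 19.5 and 0.839 CPM, against 36.1 and 7.73 CPM for Unc5b, while Gcdh was at 24.9 and 20.3 CPM.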

How the data were processed

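The authors aligned the reads with HISAT2, used HTSeq to count them on Ensembl genes of GRCm38, and deposited raw counts (versions 2.1.0 and 0.11.1 in the submitters' processing notes). The strand setting was not given in the sources used here. Tallies that name no gene, 43.1% to 47.3% of all, were left out. Symbols and positions came from GENCODE M21 for 46574 of 47069 identifiers. The test was that of edgeR 4.0.16 in R 4.3.3 (filterByExpr, TMM, quasi-likelihood, two-sided, Benjamini-Hochberg adjustment over 15941 genes), and genes were called at an adjusted p-value under 0.1. SEs were taken from the F statistic. Log2 ratios to ganglion cell markers used a pseudocount of 0.5 CPM. Alternatives were DESeq2 1.42.0, limma 3.58.1 voom, other size factors, filters and thresholds, each library left out and a replicate block. The fits were tested on simulated data, in which 200 of 15941 genes were changed. There, 11.6% of the calls of edgeR, 8.40% of those of limma voom and 33.2% of those of DESeq2 were false. Of the simulated 2-fold changes, edgeR recovered 46.7%. Such shares depend on how many genes change. As 46.4% of tested genes were called in the real libraries, the simulated shares do not carry over to them. A gene not called may still differ.

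Members and lists were chosen with earlier results of these data known. The text names all members and, of each pathway list, the 3 called genes of largest change with a mean of at least 5 CPM and all genes called against the list's majority. Of marker lists it names the most abundant gene and those at 0 counts, and for the members with the lowest adjusted p-value in each direction the 3 most similar genes. Lrrc4c, Ntn4, Adam10 and Lrig2 were named besides these after their values were seen, as were Pax2, Gfap, S100b, Vax1, Cdh5, Tie1, Cldn5, Pecam1, Tek, Emcn and Esam. Ntn3 was not matched. Figures were drawn with matplotlib 3.10.9.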

Additional observations from a re-analysis of the deposited data

How the results depend on the processing

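Over 13 alternatives for each of the 10 genes, 122 of 130 values kept their direction and side of the threshold, 6 lost the call (5 of Ntn1 and 1 of Unc5a) and 2 changed sign, both without cRGC replicate 3, for Dcc (0.14) and Rgma (0.079). With each library left out, Dcc lay between -0.37 and 0.14 and Rgma between -0.42 and 0.079. Dcc and Rgma were not called in any setting. The number of members called was 6 to 7 when each library was left out. All genes called were 7395 and 6303 to 7603 with each library left out, and pathway genes called were 47 and 42 to 48. With an absolute log2 fold change above 1 also required, 3688 genes and 22 pathway genes were called. The log2 difference of Unc5c to Dcc was -1.75 to -1.27, that of Neo1 to Dcc 0.12 to 0.68 and that of Rgmb to Rgma -1.84 to -1.31 with each library left out. No pairing by replicate number was seen, as the deviations of same-numbered libraries correlated at -0.067 to -0.014 and 0 of 6 libraries correlated best with their own number. Whether same-numbered libraries were prepared together cannot be read from this. With the replicate block, 6751 genes, 6 members and 47 pathway genes were called, and Ntn1 lost its call (log2 fold change 1.66, Benjamini-Hochberg adjusted p = 0.108 in edgeR). Relative to the ganglion cell markers, a scale chosen after seeing the data, the mean log2 CPM difference of every gene shifts by 1.90, and those of Dscam, Unc5d, Rgmb and Unc5c were close to 0. The 3 libraries per population and their biological coefficient of variation of 36.3% limit the precision of all values, and Ntn1 rests on 27 to 129 counts per library.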
